A study of Rattus norvegicus with 3 samples.

Results

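The mitochondrial carriers of the SLC25 family were followed across 3 RNA libraries of rat retina. The members were the genes whose symbol is Slc25a followed by a number, plus the uncoupling proteins Ucp1, Ucp2 and Ucp3, which gave 51 of the 32883 genes in the deposited tables. All libraries came from Sprague-Dawley rats at postnatal day 60. The HIOP_GSK library came from retina given an agent called GSK in the anterior chamber 24 h before ischemia and then the same pressure injury as HIOP. In HIOP the eye was held at 110 mmHg for 60 min, which interrupts the retinal blood supply. In both HIOP and HIOP_GSK the retina was taken 12 h after ischemia. The CTL retina is labelled as having had no treatment, whereas the protocol speaks of a sham operation with a needle in the eye at 2.66 kPa, and the sources used here do not settle which of these it was. Per the protocol, operated rats had chloral hydrate as anesthetic and a drop of chloramphenicol on the eye. The chemical identity and dose of GSK, the number of animals behind each library and any eye given only the solvent of GSK are not described in the sources used here.

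Each group was 1 library, so the size of a difference is given without any measure of how animals vary, and no test across animals was possible. Totals were 15132754 counts in HIOP_GSK, 17221510 in HIOP and 16090064 in CTL. The 7 listed rod genes, which mark the main cell type of the retina, had counts in every library and summed to 18386 CPM in HIOP_GSK, 26040 CPM in HIOP and 26983 CPM in CTL, where CPM is the library-scaled count relative to the library's total. Markers of other tissues also differed: the 7 lens genes summed to 8288 CPM in HIOP_GSK, 2154 CPM in HIOP and 753 CPM in CTL. In whole retina, fewer cells of a type and less RNA per cell cannot be told apart. Folds below are ratios of scaled counts with an exact 95% interval from the 2 counts, which covers counting error only. A gene passed the filter at 1 CPM or more in at least 1 library and was called higher or lower at a 2-fold difference, as a description and not as a test.

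SLC25 proteins sit mostly in the inner mitochondrial membrane and exchange nucleotides, phosphate, amino acids, carboxylates, iron and cofactors between the matrix and the rest of the cell. The adenine nucleotide carriers bring ADP in and ATP out, the phosphate carrier supplies phosphate for ATP synthesis, and the aspartate/glutamate carriers are part of the malate-aspartate shuttle, which moves reducing equivalents from the cytosol into the matrix. Photoreceptors, which make up much of the retina, have a high demand for ATP and pack mitochondria into their inner segments.

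Of the 51 members, 43 passed the filter, and 40 of these reached 1 CPM in every library. The other 3 passed through some libraries only: Slc25a21 through CTL, Slc25a22 through HIOP_GSK, and Slc25a52 through both injured libraries. The 8 members below the filter were Ucp1, Ucp3, Slc25a6, Slc25a31, Slc25a41, Slc25a45, Slc25a47 and Slc25a54. Ucp1, the uncoupling protein of brown fat, had 0 counts in all 3 libraries, which allows up to 0.197 CPM in HIOP_GSK, 0.175 CPM in HIOP and 0.186 CPM in CTL. Ucp3, known mainly from muscle, had 6 counts in HIOP_GSK, 6 in HIOP and 3 in CTL. Slc25a31, an adenine nucleotide carrier of the testis, had 3 counts in HIOP_GSK and 0 in both HIOP and CTL. Slc25a45 came nearest to the filter, with 15 counts in HIOP_GSK, 7 in HIOP and 14 in CTL. The remaining 4 had between 0 and 8 counts: Slc25a6 had 2 in HIOP_GSK, 8 in HIOP and 3 in CTL, Slc25a47 had 5, 1 and 1 in the same order of libraries, Slc25a41 had 1, 2 and 1, and Slc25a54 had 1, 1 and 0.

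The family as a whole took 0.202% of counts in HIOP_GSK (0.200 to 0.204, exact binomial), 0.208% in HIOP (0.206 to 0.211) and 0.175% in CTL (0.173 to 0.178). Summed over all 51 members this was 2007 CPM in HIOP_GSK, 2096 CPM in HIOP and 1754 CPM in CTL. Slc25a30 alone accounted for 148 CPM in HIOP_GSK, 184 CPM in HIOP and 15.6 CPM in CTL of these sums. Without Slc25a30 the family took 0.187% of counts in HIOP_GSK, 0.190% in HIOP and 0.174% in CTL. On the deposited TPM (a transcript abundance that takes gene length into account) the sums were 1662 in HIOP_GSK, 1667 in HIOP and 1533 in CTL.

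Levels were very uneven between members. Slc25a3, Slc25a4 and Slc25a5, the phosphate carrier and the main adenine nucleotide carriers, together held 55.3% of the family's TPM in HIOP_GSK, 56.1% in HIOP and 53.6% in CTL. Slc25a4 was the most abundant in every library, with 385 TPM in HIOP_GSK, 360 TPM in HIOP and 379 TPM in CTL. Slc25a23, a calcium-dependent carrier of ATP-Mg and phosphate, came next after these 3 genes in every library, at 117 TPM in HIOP_GSK, 93.9 TPM in HIOP and 94.7 TPM in CTL. Slc25a30 was 5th of the 51 members by TPM in both injured libraries and 29th in CTL. At the other end, Slc25a51, Slc25a18, Slc25a21 and Slc25a34 were below 1.2 TPM in all 3 libraries.

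**Figure D1:**
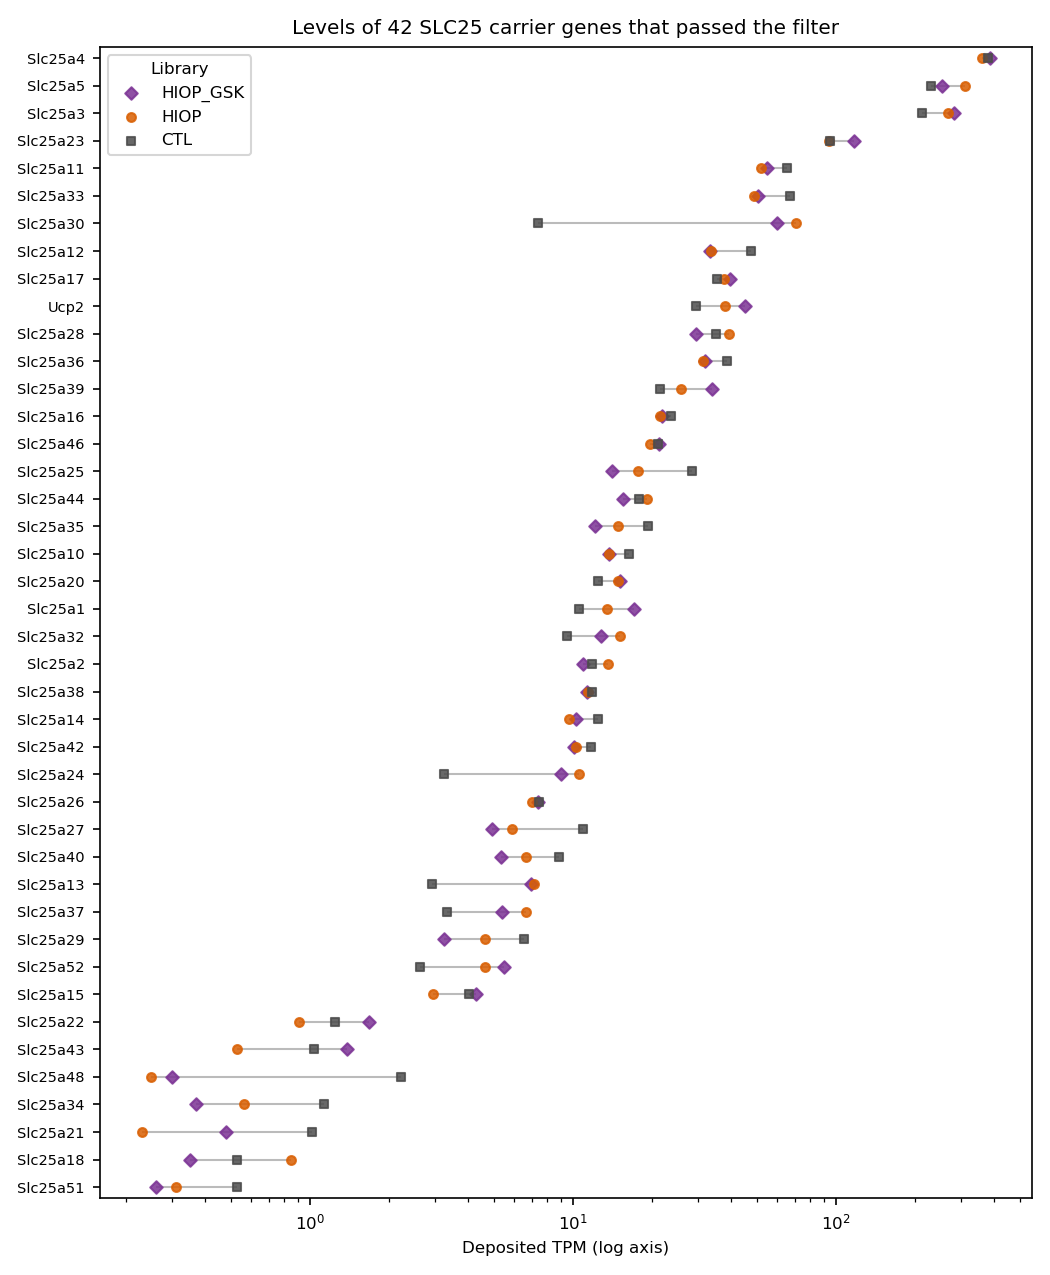
Deposited TPM (log axis) of 42 of the 43 SLC25 genes that passed the filter, 1 point per library, ordered by the mean over the libraries. Most genes have their 3 points close together, while Slc25a30 lies at 59.6 TPM in HIOP_GSK and 70.4 TPM in HIOP, against 7.39 TPM in CTL.

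The first comparison was HIOP with CTL, the retina 12 h after ischemia against the retina without it. A few carriers were higher in HIOP, chiefly Slc25a30, and most of the family was little different. Past the 2-fold limit, 5 of the 43 (11.6%) were higher in HIOP, against 9.0% of the 15543 genes that passed the filter, and 1 (2.33%) was lower, against 8.04%. At a limit of 1.5-fold, 6 members (14.0%) were higher, against 16.1% of genes, and 3 (6.98%) were lower, against 17.6%. The shares called higher were thus near those of genes in general, and the shares called lower were below them. Slc25a52, among the higher ones, passed the filter only through the injured libraries, and Slc25a21, the lower one, only through CTL, so for both the filter favoured the direction called. The median log2 ratio of the 43 members was 0.048, against 0.0042 for the genes in general, and on TPM both medians were below 0, at -0.075 and -0.083. Of the members, 79.1% lay within 1.5-fold, against 66.3% of genes.

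Slc25a30, known as kidney mitochondrial carrier protein, is a relative of the uncoupling proteins. It had 2256 counts in HIOP_GSK, 3144 in HIOP and 251 in CTL. Both injured libraries stood far above CTL. It was 11.8-fold higher in HIOP than in CTL (10.4 to 13.4), and of the 15543 genes only 166 had a larger log2 ratio. The HIOP_GSK library was 9.51-fold above CTL (8.34 to 10.9). On TPM the values were 59.6 in HIOP_GSK, 70.4 in HIOP and 7.39 in CTL.

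The other proteins of the uncoupling group did not follow Slc25a30. Ucp2, an inner membrane protein found in many tissues and in immune cells, had 747 counts in HIOP_GSK, 773 in HIOP and 544 in CTL, and was 1.34-fold higher in HIOP (1.20 to 1.49). Slc25a14, a brain carrier of this group, had 372, 452 and 411 counts in HIOP_GSK, HIOP and CTL, and its ratio of HIOP over CTL was 1.03 (0.903 to 1.18). Slc25a27, also known as uncoupling protein 4 and abundant in neurons, was lower in HIOP, with 344 counts in HIOP_GSK, 415 in HIOP and 606 in CTL, or 1.55-fold lower in HIOP (1.37 to 1.76). As a result the make-up of the group differed between libraries. Slc25a30 supplied 49.7% of the summed TPM of the 4 genes in HIOP_GSK and 56.9% in HIOP, against 12.3% in CTL, while Slc25a27 supplied 4.12% in HIOP_GSK and 4.73% in HIOP, against 18.2% in CTL. The sum of these 4 genes was 120 TPM in HIOP_GSK and 124 TPM in HIOP, against 60.2 TPM in CTL.

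The carriers of ATP-Mg and phosphate adjust the adenine nucleotide pool of the matrix and are switched on by calcium through a regulatory domain on the outer face of the membrane. Slc25a24 had 428 counts in HIOP_GSK, 548 in HIOP and 150 in CTL and was 3.44-fold higher in HIOP (2.86 to 4.14). Its paralog Slc25a25 went the other way, with 649 counts in HIOP_GSK, 949 in HIOP and 1327 in CTL, and was 1.49-fold lower in HIOP (1.37 to 1.62). The most abundant member, Slc25a23, had 2403 counts in HIOP_GSK, 2248 in HIOP and 1826 in CTL, a ratio of 1.16 for HIOP over CTL (1.09 to 1.23). The sum of the 3 genes was 140 TPM in HIOP_GSK and 122 TPM in HIOP, against 126 TPM in CTL. Slc25a24 made up 6.44% of that sum in HIOP_GSK and 8.67% in HIOP, against 2.56% in CTL, and Slc25a25 made up 10.1% in HIOP_GSK and 14.4% in HIOP, against 22.4% in CTL. In the RefSeq annotation of the assembly GRCr8, used for neighbours only, Slc25a24 overlaps Slc25a54, which had at most 1 count in any library, and Slc25a25 overlaps Naif1. Whether the counting used strand is not stated, and reads of overlapping genes may therefore be shared.

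The aspartate/glutamate carriers differed from each other in the same manner. Slc25a13 (citrin, the form known best from liver) had 198 counts in HIOP_GSK, 246 in HIOP and 102 in CTL and was 2.27-fold higher in HIOP (1.79 to 2.89). Slc25a12 (aralar, the form of brain and muscle) had 1174 counts in HIOP_GSK, 1448 in HIOP and 1636 in CTL and was 1.20-fold lower in HIOP (1.12 to 1.29). Slc25a12 remained the main form in every library, but Slc25a13 supplied 17.2% of their summed TPM in HIOP_GSK and 17.6% in HIOP, against 5.76% in CTL. By counts, which are not corrected for length, its share was 14.4% in HIOP_GSK (12.6 to 16.4, exact binomial) and 14.5% in HIOP (12.9 to 16.3), against 5.87% in CTL (4.81 to 7.08). In GRCr8 the locus of Slc25a13 overlaps that of Rpl31l14.

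Because these paralogs share a substrate and differed in direction, the sequences upstream of their start sites are shown. Each is the 250 bases before the RefSeq start in GRCr8, 5′ to 3′ on the gene's own strand, with matches to the motifs searched in capitals. The windows lie at chr2:199449175-199449424 on the plus strand for Slc25a24, chr3:36116582-36116831 on the minus strand for Slc25a25, chr4:35328361-35328610 on the minus strand for Slc25a13 and chr3:76599537-76599786 on the minus strand for Slc25a12.
Slc25a24: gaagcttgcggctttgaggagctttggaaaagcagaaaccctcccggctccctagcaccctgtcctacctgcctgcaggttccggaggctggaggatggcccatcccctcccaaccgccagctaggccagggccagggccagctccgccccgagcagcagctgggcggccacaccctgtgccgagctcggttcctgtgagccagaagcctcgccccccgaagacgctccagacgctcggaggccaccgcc
Slc25a25: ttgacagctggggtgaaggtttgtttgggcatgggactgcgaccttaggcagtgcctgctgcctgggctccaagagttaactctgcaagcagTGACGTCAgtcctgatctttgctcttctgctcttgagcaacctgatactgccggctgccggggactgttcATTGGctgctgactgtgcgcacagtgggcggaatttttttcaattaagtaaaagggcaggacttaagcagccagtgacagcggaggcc
Slc25a13: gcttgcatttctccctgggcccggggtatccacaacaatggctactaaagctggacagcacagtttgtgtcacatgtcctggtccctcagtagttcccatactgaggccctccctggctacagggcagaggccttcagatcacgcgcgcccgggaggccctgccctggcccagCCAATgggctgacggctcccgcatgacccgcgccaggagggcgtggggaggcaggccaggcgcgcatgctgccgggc
Slc25a12: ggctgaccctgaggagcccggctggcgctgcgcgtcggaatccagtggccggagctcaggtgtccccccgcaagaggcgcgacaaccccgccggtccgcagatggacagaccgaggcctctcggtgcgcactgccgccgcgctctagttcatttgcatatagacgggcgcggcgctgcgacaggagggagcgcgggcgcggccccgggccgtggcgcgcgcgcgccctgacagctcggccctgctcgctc

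The motifs searched on both strands were CCAAT (the CCAAT box), TGACGTCA (the cyclic AMP response element), TGANTCA (AP-1), TTCNNNGAA (STAT) and CACGTG (the E-box), and none of these matches overlapped in the windows shown. Slc25a25 held 1 cyclic AMP response element and 1 CCAAT box on the reverse strand, Slc25a13 held 1 CCAAT box, and the windows of Slc25a24 and Slc25a12 held none of the 5 motifs. The share of G and C was 68.4% for Slc25a24, 66.0% for Slc25a13 and 74.0% for Slc25a12, against a median of 51.2% over 33469 windows. For Slc25a25 it was 54.4%, close to that median. RefSeq gave 45 windows for 43 of the members, with 2 windows each for Slc25a43 and Slc25a48. No window was available for Slc25a30, Slc25a37, Slc25a52 and Slc25a32, which were among the members higher in HIOP. The shares below therefore leave these genes out. Among the 45, 2 (4.44%) held the cyclic AMP response element, those of Slc25a25 and Slc25a33, against 1.59% of all 33469 windows, and 21 (46.7%) held a CCAAT box, against 34.0%. AP-1 matches were present in 4.44% of member windows against 6.34%, STAT matches in 6.67% against 7.67%, and E-boxes in 11.1% against 5.59%. These are matches of letters in a short window and say nothing of binding.

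Iron is brought into mitochondria by Slc25a37 (mitoferrin-1, the form of developing red blood cells) and Slc25a28 (mitoferrin-2, the form of other cells). Slc25a37 had 135 counts in HIOP_GSK, 202 in HIOP and 72 in CTL and was 2.64-fold higher in HIOP (2.01 to 3.50). On TPM, with a pseudocount of 0.5, its log2 ratio was 0.90, below 2-fold. Slc25a28 had 577 counts in HIOP_GSK, 821 in HIOP and 645 in CTL, a ratio of 1.20 for HIOP over CTL (1.08 to 1.33). The share of Slc25a37 in the summed TPM of the 2 genes was 15.5% in HIOP_GSK and 14.4% in HIOP, against 8.64% in CTL. Red blood cell genes also differed: the 5 matched markers summed to 40.4 CPM in HIOP_GSK and 73.4 CPM in HIOP, against 35.5 CPM in CTL. Each of the 3 that passed the filter was at least 2-fold higher in HIOP over CTL, against 9.0% of genes in general. Alas2, the heme synthesis enzyme of red blood cells, had 37 counts in HIOP_GSK, 79 in HIOP and 27 in CTL, and Ahsp was at 0 in HIOP_GSK. The part of red blood cells in the Slc25a37 result was not tested.

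Slc25a39 and Slc25a40 are related carriers, and Slc25a39 is known for the import of glutathione. Slc25a39 had 535 counts in HIOP_GSK, 498 in HIOP and 370 in CTL, whereas Slc25a40 had 191 in HIOP_GSK, 265 in HIOP and 305 in CTL. Slc25a39 was 1.27-fold higher in HIOP than in CTL (1.10 to 1.45), and Slc25a40 was 1.22-fold lower (1.03 to 1.45). In HIOP_GSK over CTL the same genes stood at 1.53-fold higher (1.34 to 1.75) and 1.51-fold lower (1.26 to 1.82).

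Among cofactor and nucleotide carriers the largest ratios belonged to Slc25a52 and Slc25a32. Slc25a52, whose human counterpart is a near copy of the NAD carrier SLC25A51, had only 25 counts in HIOP_GSK, 34 in HIOP and 12 in CTL, a ratio of 2.66 for HIOP over CTL (1.35 to 5.65). Slc25a51 had 46 counts in HIOP_GSK, 42 in HIOP and 48 in CTL, a ratio of 0.823 (0.531 to 1.27), and how reads were divided between these related genes is uncertain. On TPM the log2 ratio of Slc25a52 was 0.72, below 2-fold. Slc25a32, which carries folate or flavin cofactors into mitochondria, had 433 counts in HIOP_GSK, 613 in HIOP and 320 in CTL and was 1.80-fold higher in HIOP (1.57 to 2.07).

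The other carriers of this group stayed near CTL. Slc25a33 and Slc25a36, the pyrimidine nucleotide carriers, were both slightly lower in HIOP. Slc25a33 had 930 counts in HIOP_GSK, 1045 in HIOP and 1185 in CTL (1.21-fold lower in HIOP, 1.11 to 1.31), and Slc25a36 had 700, 760 and 848 counts in the same libraries (1.19-fold lower, 1.07 to 1.31). Slc25a17, a carrier of peroxisomes, had 919 counts in HIOP_GSK, 1007 in HIOP and 812 in CTL, a ratio of 1.17 (1.06 to 1.28). For Slc25a16, Slc25a26 and Slc25a42, the last a carrier of coenzyme A, the ratio of HIOP over CTL lay between 0.951 and 1.07. Over the 10 genes of the group the median log2 ratio was 0.05.

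**Figure D2:**
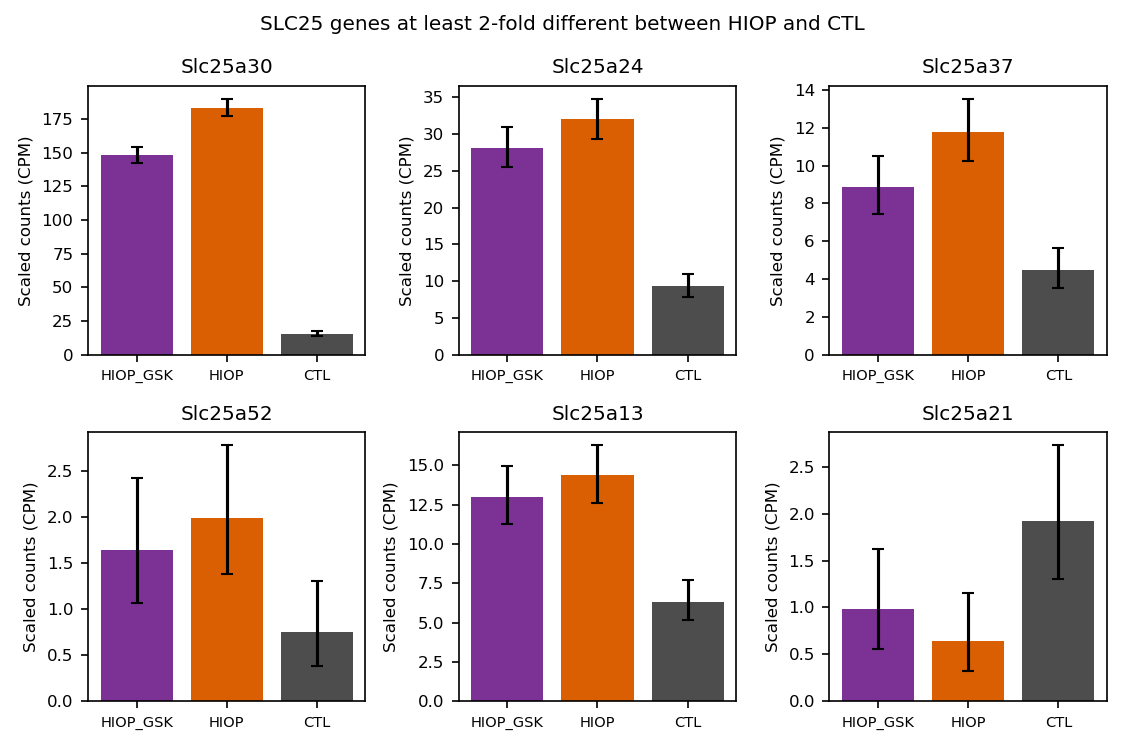
Scaled counts (CPM) of the 6 SLC25 genes at least 2-fold different between HIOP and CTL, 1 bar per library, with exact 95% Poisson intervals of the count as error bars (counting error only). For the 5 genes higher in HIOP, the HIOP_GSK bar also stands above that of CTL, and the bars of Slc25a52 and Slc25a21 rest on 11 to 34 counts each.

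The 1 member at least 2-fold lower in HIOP was Slc25a21, the carrier of oxoadipate, a breakdown product of lysine and tryptophan. It had 15 counts in HIOP_GSK, 11 in HIOP and 31 in CTL and was 3.00-fold lower in HIOP (1.47 to 6.61). It passed the filter only through CTL, where it was highest, and its locus overlaps that of Pax9 in GRCr8. Slc25a48, which is tied to choline import, was just within the limit, with 36 counts in HIOP_GSK, 29 in HIOP and 53 in CTL, or 1.94-fold lower in HIOP (1.21 to 3.17). Its deposited TPM was 0.30 in HIOP_GSK and 0.25 in HIOP, against 2.23 in CTL, a larger difference than the counts show, and its locus overlaps those of Il9 and Gm3045l in GRCr8. On the other side, Slc25a32 was the nearest member below the 2-fold limit.

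Carriers that feed ATP synthesis were slightly higher or level in HIOP. Slc25a4, the adenine nucleotide carrier of heart, muscle and brain, had 4589 counts in HIOP_GSK, 4980 in HIOP and 4517 in CTL, a ratio of 1.04 for HIOP over CTL (0.996 to 1.08). Slc25a5, the form of proliferating and many other cells, had 2789 counts in HIOP_GSK, 3963 in HIOP and 2551 in CTL and was 1.46-fold higher in HIOP (1.39 to 1.54). The share of Slc25a5 in the summed TPM of the pair was 39.7% in HIOP_GSK and 46.2% in HIOP, against 37.8% in CTL. Slc25a3, the phosphate carrier, had 3727 counts in HIOP_GSK, 4219 in HIOP and 2905 in CTL and was 1.37-fold higher in HIOP (1.30 to 1.43). For comparison, the 15 nuclear-encoded ATP synthase subunits had a median log2 ratio of 0.12, with a range from -0.08 to 0.56 and none 2-fold different. Close relatives and processed copies of the adenine nucleotide carriers make the split of reads among them uncertain.

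The carboxylate carriers other than Slc25a13 and Slc25a21 were within 1.5-fold. Slc25a11, the oxoglutarate/malate carrier of the malate-aspartate shuttle, had 881 counts in HIOP_GSK, 890 in HIOP and 956 in CTL, or 1.14-fold lower in HIOP (1.04 to 1.25). Slc25a10, the dicarboxylate carrier, had 391, 438 and 464 counts in HIOP_GSK, HIOP and CTL. Slc25a1, the citrate carrier, which supplies citrate for lipid synthesis, was 1.35-fold higher in HIOP (1.12 to 1.62), with 293 counts in HIOP_GSK, 287 in HIOP and 200 in CTL. The glutamate carriers had few counts. Slc25a22 had 20 in HIOP_GSK, 15 in HIOP and 15 in CTL, and Slc25a18 had 30, 43 and 44 in the same libraries. In GRCr8 the locus of Slc25a22 overlaps that of Cend1.

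Amino acid and carnitine carriers had a median log2 ratio of 0.13 over the 7 that passed the filter, and none was 2-fold different. Slc25a20, which exchanges carnitine for acylcarnitine in fatty acid oxidation, had 317 counts in HIOP_GSK, 381 in HIOP and 289 in CTL and was 1.24-fold higher in HIOP (1.06 to 1.45). Slc25a44, a carrier of branched-chain amino acids, had 388 counts in HIOP_GSK, 540 in HIOP and 408 in CTL and was likewise 1.24-fold higher (1.09 to 1.42). The ornithine carriers differed: Slc25a15 was 1.27-fold lower in HIOP (1.03 to 1.57), with 178, 164 and 196 counts in HIOP_GSK, HIOP and CTL, and Slc25a2 was 1.35-fold higher (1.10 to 1.68), with 161, 219 and 152 counts. Slc25a2 overlaps Taf7 in GRCr8, so its counts are uncertain. Overlaps with protein-coding genes are not stated here for every member. Others with one include Slc25a40 (Rundc3b), Slc25a35 (Rangrf), Slc25a14 (Zfp280c) and Slc25a11 (Gp1ba). Slc25a38, a glycine carrier needed for heme synthesis, had a ratio of 1.09 (0.939 to 1.27), and Slc25a29, a carrier of basic amino acids, was 1.18-fold lower (0.971 to 1.44 as the interval of that fold).

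Carriers without a settled transport role made the last group. Slc25a46, which sits in the outer membrane and is tied to mitochondrial fission and fusion, had 829 counts in HIOP_GSK, 857 in HIOP and 809 in CTL, a ratio of 0.996 for HIOP over CTL (0.904 to 1.10). Slc25a35 had 326 counts in HIOP_GSK, 407 in HIOP and 517 in CTL and was 1.35-fold lower in HIOP (1.18 to 1.54). Slc25a34 and Slc25a43 had between 20 and 39 counts, too few to show a difference of 1.5-fold between HIOP and CTL.

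**Figure D3:**
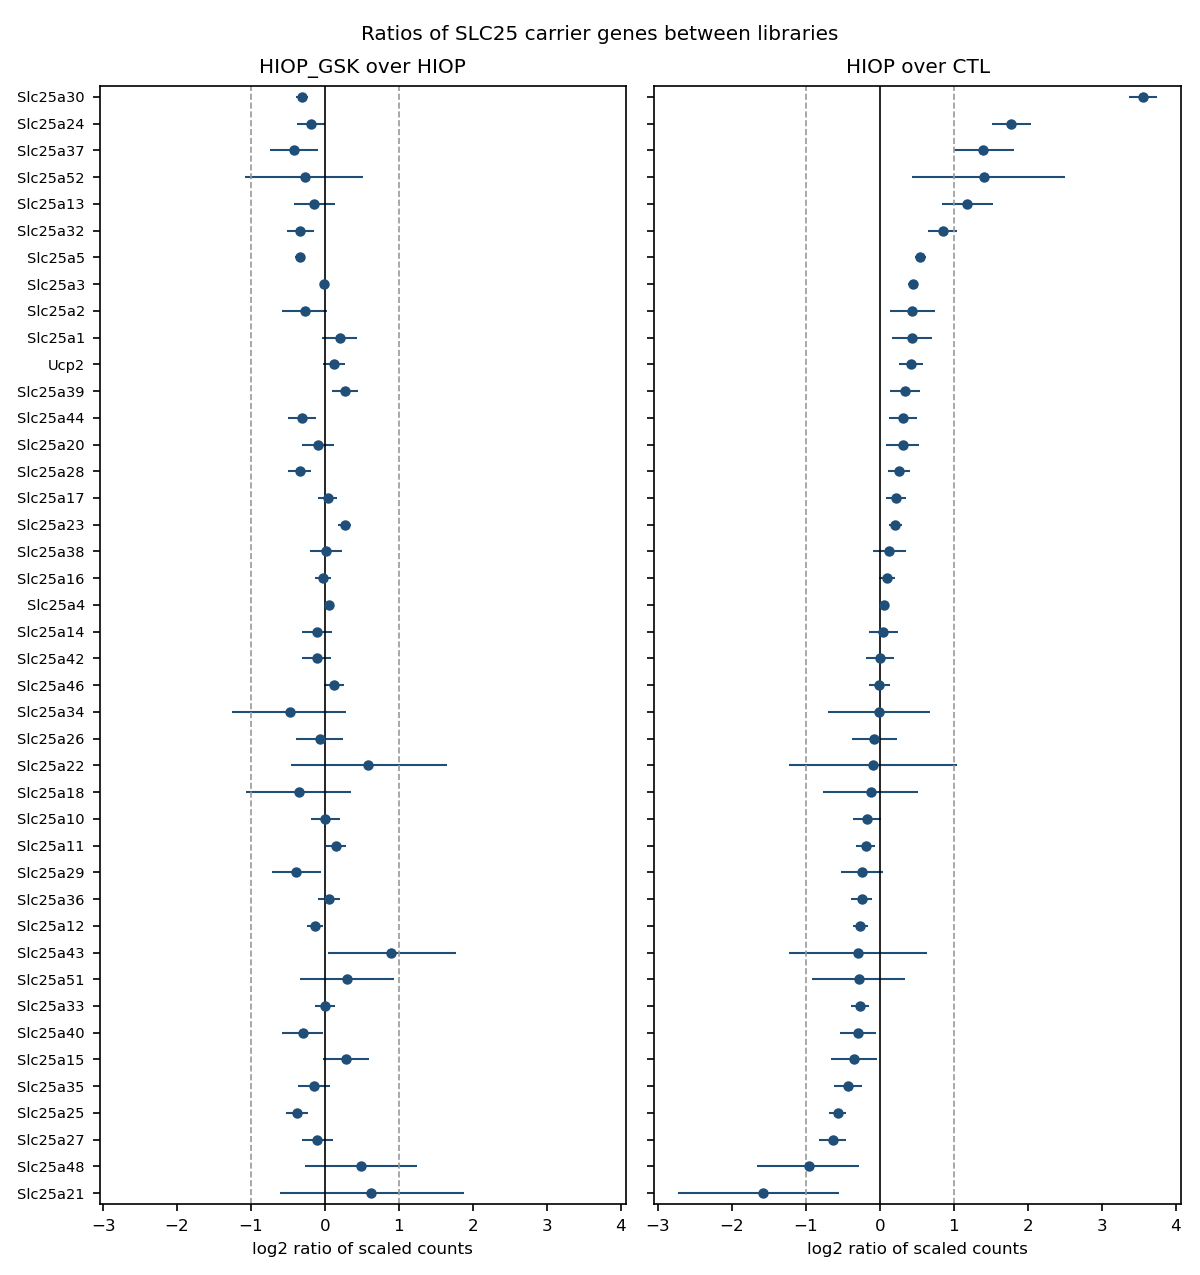
Log2 ratios of scaled counts for 42 of the 43 SLC25 genes that passed the filter, HIOP_GSK over HIOP on the left and HIOP over CTL on the right, with exact 95% intervals from the counts. Genes are ordered by HIOP over CTL, and dashed lines mark 2-fold. On the right 6 genes pass them, and on the left no gene does. Both panels use the same HIOP library.

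The second comparison was HIOP_GSK with HIOP, the injured retina with the agent against the injured retina without it. No SLC25 gene that passed the filter was 2-fold different: 0 of 43 were at least 2-fold higher, against 4.56% of all 15543 genes, and 0 were at least 2-fold lower, against 1.69%. At 1.5-fold, 1 member was higher (2.33%, against 9.68% of genes) and 0 were lower (against 4.82%). The 1 was Slc25a43, with 33 counts in HIOP_GSK and 20 in HIOP, a ratio of 1.86 (1.03 to 3.41). The median log2 ratio was -0.095 over the 43 members, with a range from -0.44 to 0.83, and -0.0024 over the genes in general, while on TPM it was 0.0010 for the members. In all, 97.7% of the members lay within 1.5-fold, against 85.5% of genes.

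Differences below 1.5-fold, with counting intervals that leave out a ratio of 1, were seen in members of high and of low level, of which the following are examples. Slc25a30 was 1.24-fold lower in HIOP_GSK (1.17 to 1.31), and Slc25a5 was 1.26-fold lower (1.20 to 1.33). Slc25a37 was 1.33-fold lower (1.06 to 1.67), Slc25a28 1.26-fold lower (1.14 to 1.41), and Slc25a32 also 1.26-fold lower (1.11 to 1.43). Slc25a25 was 1.30-fold lower (1.17 to 1.44), and Slc25a29 was 1.31-fold lower (1.04 to 1.64). On the higher side, Slc25a23 had a ratio of 1.20 (1.13 to 1.27) and Slc25a39 one of 1.21 (1.07 to 1.37). For Slc25a24 and Slc25a13 the ratios of HIOP_GSK over HIOP were 0.879 (0.773 to 0.999) and 0.906 (0.747 to 1.10). Slc25a3 and Slc25a4 were level, at 0.994 (0.951 to 1.04) and 1.04 (0.996 to 1.08). With 1 library on each side, differences of this size have no check against the variation between animals. The same HIOP library serves the first comparison. A high count in it raises HIOP over CTL and lowers HIOP_GSK over HIOP, so opposite directions in these ratios are not separate observations.

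The third comparison set HIOP_GSK against CTL, which shares its CTL library with the first. Of the 43 members, 4 (9.30%) were at least 2-fold higher in HIOP_GSK, against 10.4% of genes, and 0 were at least 2-fold lower, against 6.32%. These 4 were Slc25a30, Slc25a24 at 3.02-fold (2.50 to 3.66), Slc25a13 at 2.05-fold (1.61 to 2.63) and Slc25a52 at 2.20-fold (1.07 to 4.81), the last of which was below 1 CPM in CTL and passed the filter through the injured libraries. Slc25a37, at 1.98-fold (1.48 to 2.68), was just below the limit. At 1.5-fold, 7 members (16.3%) were higher, against 17.6% of genes, and 5 (11.6%) were lower, against 16.6%. The lower ones included Slc25a25 at 1.93-fold (1.76 to 2.13), Slc25a27 at 1.67-fold (1.46 to 1.91) and Slc25a29 at 1.55-fold (1.24 to 1.94). Slc25a1, at 1.55-fold higher (1.29 to 1.86), joined the higher ones. All these shares lie near or below those of genes in general.

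**Figure D4:**
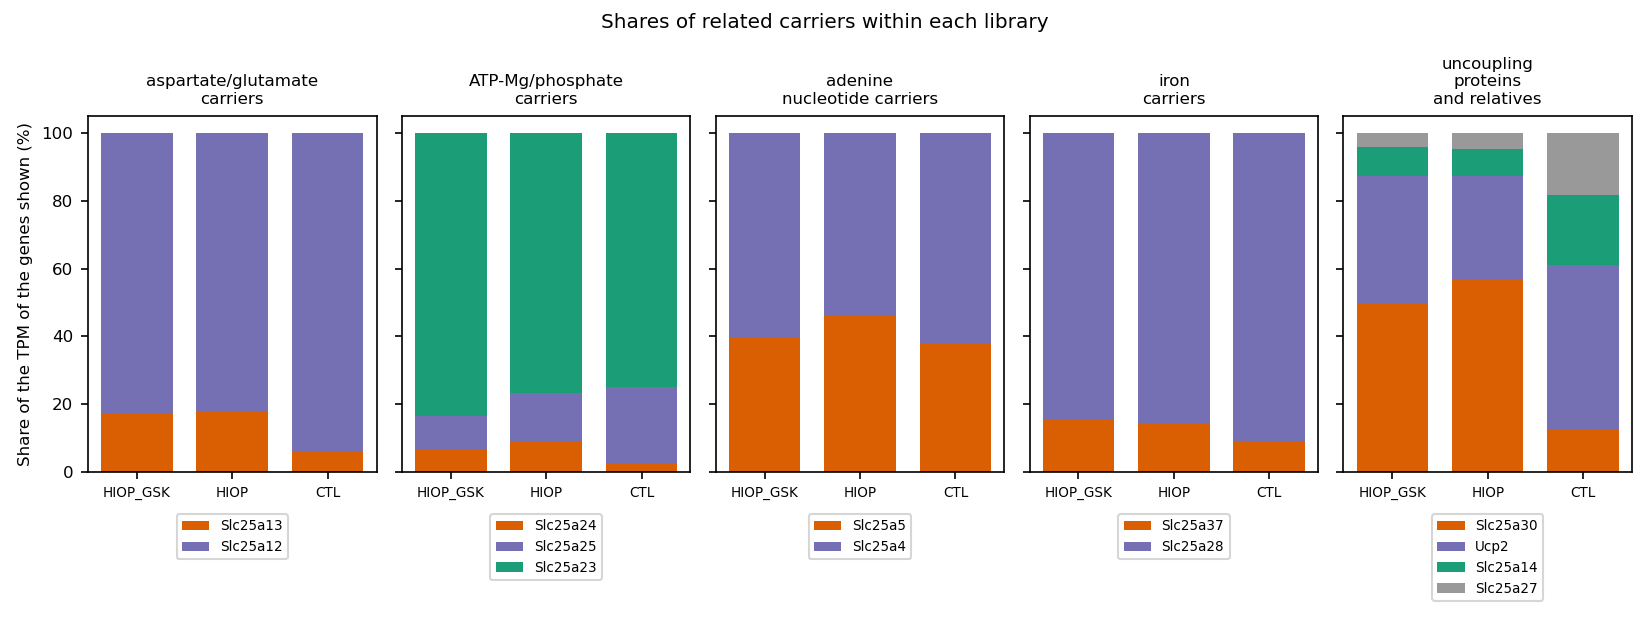
Share of summed TPM (%) held by each gene within 5 sets of related carriers, 1 stacked bar per library. The orange segment is the gene chosen in each set for its high HIOP over CTL ratio, which by itself makes its share larger in HIOP, and the picture shows by how much, for example 56.9% in HIOP against 12.3% in CTL for Slc25a30.

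Genes around the carriers were described from lists of the same transport routes. None of the 7 outer membrane channel, insertase and pyruvate carrier genes was 2-fold different in HIOP over CTL (median log2 ratio 0.05, from -0.58 to 0.50). Mpc1, a subunit of the pyruvate carrier, was lower in HIOP, at a log2 ratio of -0.58, with 563 counts in HIOP_GSK, 530 in HIOP and 746 in CTL. Likewise none of the 16 matched enzymes of the malate-aspartate shuttle and citric acid cycle was 2-fold different (median -0.05). Got1, the cytosolic aspartate aminotransferase of that shuttle, was 1.53-fold lower in HIOP (1.45 to 1.62), with 2383 counts in HIOP_GSK, 2395 in HIOP and 3452 in CTL.

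In the carnitine and fatty acid oxidation list, 1 of 14 genes passed 2-fold on the higher side in HIOP and 1 on the lower side (median 0.03). For lists of 8 to 14 genes, 1 gene past the limit is near the share of genes in general. Cpt1a, the enzyme that makes the acylcarnitine carried by Slc25a20, was 2.38-fold lower (2.25 to 2.51), with 1644 counts in HIOP_GSK, 1850 in HIOP and 4132 in CTL. Acadl, an acyl-CoA dehydrogenase, was 2.04-fold higher (1.67 to 2.50). Of 14 iron, iron-sulfur and heme genes only Alas2 was at least 2-fold higher, at 2.75-fold (1.76 to 4.43), and the median was 0.12. Among 8 mitochondrial one-carbon and glycine genes, to which Slc25a32 and Slc25a38 supply substrates, 1 was at least 2-fold higher and none lower, with a median of 0.43. Shmt2, the serine hydroxymethyltransferase of mitochondria, was that gene, at 2.11-fold (1.91 to 2.34), with 825 counts in HIOP_GSK, 1269 in HIOP and 565 in CTL.

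Against 9.0% of genes in general, the ornithine, proline and glutamate list had 1 of 10 genes at least 2-fold higher in HIOP (median -0.14). This was Odc1, which turns ornithine into putrescine, at 4.17-fold (3.95 to 4.39), with 5075 counts in HIOP_GSK, 7479 in HIOP and 1688 in CTL. The calcium uniporter list had none of 8 genes 2-fold different (median 0.00036), and Slc8b1, the mitochondrial exchanger of sodium and calcium, had its largest ratio, at 1.74-fold higher in HIOP (1.36 to 2.24). Of 10 regulators of mitochondrial biogenesis, Pprc1 was 2.74-fold higher in HIOP (2.46 to 3.05), with 984 counts in HIOP_GSK, 1328 in HIOP and 456 in CTL. Its relative Ppargc1a, the coactivator PGC-1 alpha, was 2.28-fold lower (2.09 to 2.50), with 507 counts in HIOP_GSK, 711 in HIOP and 1525 in CTL. Tfam, which packages and transcribes mitochondrial DNA, was 1.60-fold higher in HIOP (1.41 to 1.82).

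In HIOP_GSK over HIOP the route lists had medians from -0.13 to 0.18. The ornithine, proline and glutamate list had 2 of 10 past the 2-fold limit on the higher side, against 4.56% of genes in general. No other route list had any past it in either direction. Among the 2 was Arg1, arginase, which makes ornithine from arginine. It was 2.43-fold higher in HIOP_GSK (1.89 to 3.15), with 199 counts in HIOP_GSK, 92 in HIOP and 98 in CTL.

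Markers of cells that could carry some of these transcripts moved between the libraries as well. The 7 neutrophil and monocyte genes summed to 151 CPM in HIOP_GSK and 127 CPM in HIOP, against 1.18 CPM in CTL. All 5 that passed the filter were past 2-fold upward in HIOP over CTL. Of the 7 listed genes, Mpo was at 0 in every library, Elane at 0 in HIOP and CTL, and S100a8, Cxcr2 and Il1r2 at 0 in CTL. Microglia and macrophage markers summed to 108 CPM in HIOP_GSK, 37.7 CPM in HIOP and 38.3 CPM in CTL, and in HIOP over CTL 2 of their 8 genes passed 2-fold upward and 3 downward. Müller glia markers summed to 1639 CPM in HIOP_GSK and 1418 CPM in HIOP, against 2875 CPM in CTL, with 4 of 6 at least 2-fold lower in HIOP. For ganglion cells the sums were 339 CPM in HIOP_GSK and 299 CPM in HIOP, against 632 CPM in CTL, with 6 of 8 at least 2-fold lower in HIOP, and for cones 99.1 CPM in HIOP_GSK and 121 CPM in HIOP, against 391 CPM in CTL. The part of these cells in the carrier results was not tested. Markers of neighbouring tissues differed too: corneal epithelium genes summed to 51.7 CPM in HIOP_GSK and 11.3 CPM in HIOP, against 188 CPM in CTL, with 3 of 4 past 2-fold downward in HIOP over CTL. Pigment epithelium genes summed to 195 CPM in HIOP_GSK and 137 CPM in HIOP, against 333 CPM in CTL, and the 4 that passed the filter were all past 2-fold downward in HIOP over CTL. The part of these tissues was not tested either. In HIOP_GSK over HIOP, 7 of 8 microglia and macrophage, 3 of 6 Müller glia and 1 of 5 neutrophil and monocyte genes were at least 2-fold higher. So were all 7 lens and all 4 corneal epithelium genes, against 4.56% of genes in general. At least 2-fold lower were 1 of 7 rod, 1 of 6 cone and 1 of 3 red blood cell genes, against 1.69%. The part of these differences in the carrier ratios was not tested.

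Counts and deposited TPM were also compared for the members, since the authors' files give both. Slc25a30, Slc25a24 and Slc25a13 were at least 2-fold higher in HIOP over CTL on either, with log2 ratios of 3.17, 1.57 and 1.17 on TPM. Slc25a37 and Slc25a52 dropped below 2-fold on TPM, and Slc25a48 passed 2-fold lower, at -1.86. Slc25a21 kept its place at -1.06. Smaller ratios differed between the 2 measures as well. Slc25a23 had a log2 ratio of 0.21 on counts and -0.013 on TPM, and Slc25a14 had 0.048 and -0.36. The counting intervals do not cover such differences.

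**Figure D5:**
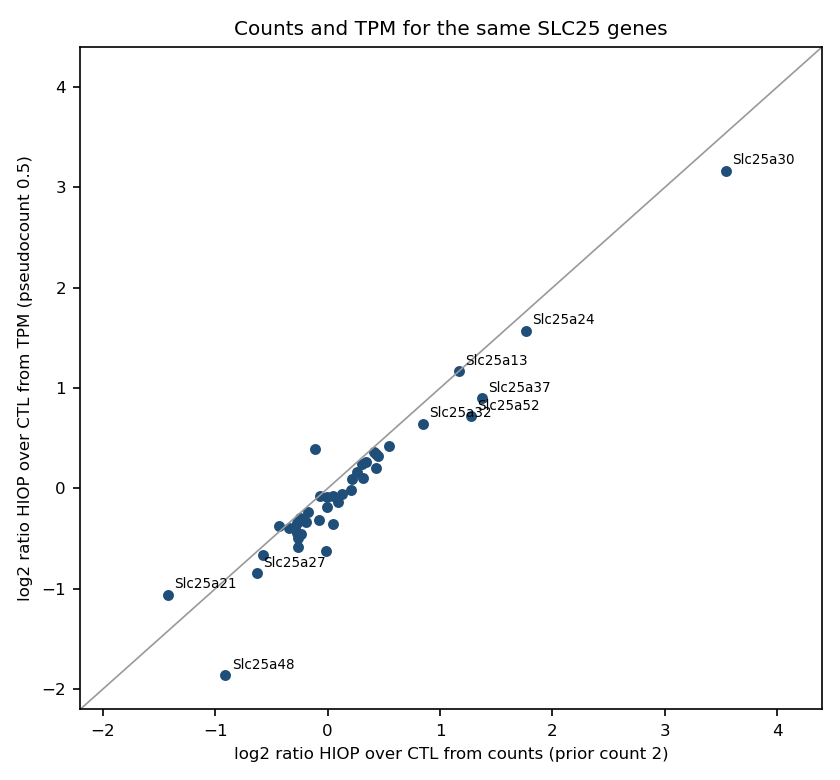
Log2 ratio of HIOP over CTL from TPM (vertical axis, pseudocount 0.5) against the same ratio from counts (horizontal axis, prior count 2), 1 point for each of 42 of the 43 SLC25 genes, with the line of equal values. Slc25a30 lies at the upper right on both scales (3.17 from TPM and 3.55 from counts), and Slc25a48 lies farthest below the line.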

How the data were processed

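RNA of 3 retina libraries was analysed, with 1 library for each of HIOP_GSK, HIOP and CTL. Per the labels' protocols, ribosomal RNA was removed and directional libraries were made. The build Rnor_6.0 and the tools RSEM 1.3.1 and STAR 2.5.4b are named per the submitters' processing notes, without their roles. The authors deposited whole-number counts, which are not normalized, and TPM scaled to a fixed sum, for 32883 genes. The counter, its strand setting and the annotation release are not given in the sources used here.

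Counts were scaled with TMM factors of edgeR 4.0.16 in R 4.3.3 (1.01 for HIOP_GSK, 0.994 for HIOP and 1.00 for CTL) over the whole table. Log2 ratios used a prior count of 2, and the filter was 1 CPM in at least 1 library. Intervals are exact Clopper-Pearson at 95%, or exact Poisson for a level, from scipy 1.17.1. A count of 0 allows 3 counts. No molecular identifiers are described, so reads may repeat a molecule, and intervals and limits cover counting error only. No test between libraries was possible. The functions were tested on simulated data with known folds.

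All members enter the counts and medians, and values of 1 of them and of 1 route gene are not reported here. Those at least 2-fold different, the 10 with the highest mean TPM and those below the filter are named with their counts, and route genes by the interval bound nearer to no difference. The members, lists and sets of related carriers were chosen with earlier results of these data known. Symbols were matched exactly, and Slc25a53, Idh3b, Ogdh, Prodh and Mpc1l were not analysed here, nor was Nfs1, whose symbol is not unique. Promoter sequences are RefSeq's, of the build GRCr8.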

Additional observations from a re-analysis of the deposited data

How the results depend on the processing

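Under library totals, DESeq2 1.42.0 size factors, totals without mitochondrial and the 20 most abundant genes, and prior counts of 0.5 and 10, each of the 129 member ratios (43 genes in 3 comparisons) stayed within its counting interval, and no ratio past 2-fold changed sign under these settings or on TPM. On the deposited TPM, 28 of the 129 left their interval, and the cause was not tested. In HIOP over CTL these included the abundant members Slc25a3, Slc25a4, Slc25a5, Slc25a23 and Slc25a30. On TPM, 3 in place of 5 members passed 2-fold upward in HIOP over CTL and 2 in place of 1 downward, while 2 in place of 0 were lower in HIOP_GSK over CTL (Slc25a48 and Slc25a27). With a filter at CPM 5, where 35 members remained, 0 were lower in HIOP over CTL, because Slc25a21 did not pass it; Slc25a52 did not pass it either, which left 4 members higher in HIOP over CTL and 3 higher when HIOP_GSK was set over CTL. Slc25a52 was also below the limit on TPM in both of these comparisons (log2 ratios 0.72 and 0.94), and with a prior count of 10 in HIOP over CTL (0.93). Without the filter, 3 members were at least 2-fold higher and 1 lower in HIOP_GSK over HIOP, each with at most 15 counts in either library, and Slc25a47 and Slc25a31 joined the members higher in HIOP_GSK over CTL, making 6. With a prior count of 10, the members higher in HIOP_GSK over CTL were 2 in place of 4, as Slc25a13 (log2 ratio 0.97) and Slc25a52 (0.73) dropped below the limit. At a limit of 1.5-fold the counts were 3 lower in HIOP over CTL, 1 higher in HIOP_GSK over HIOP, and 7 higher and 5 lower in HIOP_GSK over CTL. The members' medians ranged from -0.075 to 0.13 in HIOP over CTL, from -0.10 to 0.0010 in HIOP_GSK over HIOP and from -0.065 to 0.11 in HIOP_GSK over CTL, and in each comparison only TPM gave the opposite sign. For Slc25a18, Slc25a21, Slc25a22, Slc25a34, Slc25a43, Slc25a48, Slc25a51 and Slc25a52 the depth, at most 53 counts a library, limits any statement on differences below 2-fold. This includes the 1.5-fold call of Slc25a43 in HIOP_GSK over HIOP. The 2-fold calls of Slc25a52 and Slc25a21 are limited as well. In HIOP over CTL their counting intervals reach down to 1.35-fold higher and 1.47-fold lower, and in HIOP_GSK over CTL that of Slc25a52 reaches 1.07-fold. Leaving out a replicate was not possible with 1 library per group. No paired analysis was possible because each group is 1 library and the labels number no replicates.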
